A study of Homo sapiens with 4 samples.

Results

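The EGR, IER and NR4A immediate early genes were followed in RNA-seq libraries of cells labelled HepG2, a human liver cancer line, with and without a knockout of TXNDC9. The members were 10 genes taken by symbol, EGR1, EGR2, EGR3, IER2, IER3, IER5, NR4A1, NR4A2, SRF and ZFP36, out of 57979 gene lines with values, and each symbol stood on 1 line. The 4 libraries were 2 of wild-type cells and 2 of cells in which TXNDC9, a thioredoxin domain protein, had been targeted with CRISPR-Cas9, and both groups grew in DMEM with fetal bovine serum. No stimulus, time course or serum starvation is named for either group, so the values are levels in growing cultures. The guides were carried by a lentiviral Cas9 plasmid, and the study sorted infected cells for its knockout experiments. Whether the wild-type libraries came from cells infected with the empty vector, whether the knockout cells were 1 clone, and whether the 2 libraries of a group came from separate cultures are not given in the sources used here. The p-values therefore measure only the spread between these libraries, which may be technical.

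Values were FPKM, the fragments mapped to a gene scaled to transcript length and to the mapped fragments of the library. Levels are thus per length, but they compare genes of a library only roughly, as the fold changes below varied with transcript length and GC content. Between the libraries the scaling is in doubt, as the sums of FPKM given below differ. The depth of the libraries is unknown. TXNDC9 mRNA, the check of the labels, was 35.1 and 37.3 FPKM in wild-type libraries against 21.9 and 27.6 FPKM in the knockout libraries, a log2 fold change of −0.55 (SE 0.14, adjusted p = 0.0145), so it was lower in both knockout libraries in FPKM but did not pass the threshold of 0.01. Its value was −0.52 after a correction for length and GC and turned to 0.12 in TPM (adjusted p = 0.449). The direction of this mRNA check thus depends on the scaling. The study reported reduced TXNDC9 protein by western blot in its knockout cells, and mRNA levels do not measure the protein. TXNDC9 also overlaps 2 annotated protein-coding genes on the opposite strand. Their reads cannot be told apart from its own if strand was not used in counting. The label HepG2 was checked against 9 markers of hepatoma cells, namely ALB, AFP, APOA1, APOB, TTR, TF, SERPINA1, HNF4A and FGB. All were at or near 0 in all 4 libraries, with 21 of the 36 values listed at 0 and 15 above it, up to 0.449 FPKM for AFP in a wild-type library. Their summed level was 0.446 and 0.733 FPKM in wild type against 0.0479 and 0.174 FPKM in knockout, so none of the defining markers reached 1 FPKM in either group. The markers thus did not bear out the label HepG2, which is used here only as given. Among 7 markers of stromal, endothelial and blood cells, 8 of 28 values were 0 and COL1A2 and CD3E were at 0 in every library, while CDH5 was 0.751 and 1.07 FPKM in wild type against 4.26 and 3.14 FPKM in knockout. DCN went the other way, with 1.37 and 1.16 FPKM in wild type against 0.949 and 0.935 FPKM in knockout, and was called lower after the correction (−1.36), as did LUM in level, with 0.819 and 0.877 against 0.349 and 0.226 FPKM. The summed level of the 7 was 3.04 and 3.43 FPKM in wild type against 5.88 and 4.70 FPKM in knockout. Whether any of this plays a part in the results was not tested.

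Immediate early genes are transcribed within minutes of a stimulus such as a growth factor, without the need for new protein synthesis. In the best known route, ERK phosphorylates the ternary complex factors of the ELK family, which sit with SRF on CArG boxes in the promoters, while the kinases RSK and MSK act on CREB and on chromatin. The messages are short-lived, often through AU-rich elements in their 3′ UTRs, and some of the products, such as the DUSP phosphatases and the RNA-binding protein ZFP36, close the loop. The EGR proteins are zinc finger transcription factors, and the NR4A proteins are nuclear receptors without a known ligand. The IER genes are named for their early response. SRF is both the activator of many of these genes and a gene of the same kind.

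The promoter sequences show which members carry the element that SRF binds. RefSeq promoter windows (GRCh38.p14, 250 bases before to 50 bases after a start site) were found for 7 of the 10 members, and EGR3, IER3 and NR4A2 had none in the table. The windows were searched on both strands for the CArG box (CC, 6 bases of A or T, GG), the EGR site GCGNGGGCG, the cAMP response element TGACGTCA, its half-site TGACG, and the NBRE motif AAAGGTCA of the NR4A receptors. Each full cAMP response element also holds the half-site. Among 35116 windows, a CArG box was in 1.29%, the EGR site in 9.43%, the full cAMP response element in 1.85%, the half-site in 24.6% and the NBRE motif in 1.22%. Upstream stretches are printed for the members whose windows held CArG boxes and for ZFP36, whose mRNA was among the higher ones in the knockout libraries and whose window held none of the 5 motifs. Capitals mark CArG boxes and half-sites on either strand, and the sequences run 5′ to 3′ along the gene, ending 1 base before its start site.
EGR1, chr5:138465229-138465478, plus strand: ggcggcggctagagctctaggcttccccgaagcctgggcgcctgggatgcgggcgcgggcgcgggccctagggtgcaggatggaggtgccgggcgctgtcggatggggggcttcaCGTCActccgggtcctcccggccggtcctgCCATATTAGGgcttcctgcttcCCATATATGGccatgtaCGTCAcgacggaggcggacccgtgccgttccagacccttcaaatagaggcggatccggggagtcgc
SRF, chr6:43171119-43171268, plus strand: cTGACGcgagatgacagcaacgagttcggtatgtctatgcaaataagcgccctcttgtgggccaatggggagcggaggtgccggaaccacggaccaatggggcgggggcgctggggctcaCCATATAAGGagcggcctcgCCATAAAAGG
EGR2, start site 3 of 3, chr10:62816367-62816516, minus strand: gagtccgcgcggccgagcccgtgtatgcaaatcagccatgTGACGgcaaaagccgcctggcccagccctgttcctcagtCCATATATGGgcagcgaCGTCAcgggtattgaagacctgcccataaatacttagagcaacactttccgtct
ZFP36, chr19:39406697-39406846, plus strand: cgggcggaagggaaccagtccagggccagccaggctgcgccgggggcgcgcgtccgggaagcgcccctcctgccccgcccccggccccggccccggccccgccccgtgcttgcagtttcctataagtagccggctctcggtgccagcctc

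EGR1 had CArG boxes at −105 and −83 from its start site, half-sites at −135 and −66 and an EGR site at −198. SRF had CArG boxes at −30 and −10, an EGR site at −49 and a half-site at −149 in 1 of its 2 windows. The window of EGR2 printed here had a CArG box at −71 and half-sites at −110 and −54, and another of its 3 windows had an EGR site at 9 bases after the start. IER2 had 1 half-site at −140, and none of the motifs was found in the windows of IER5, NR4A1 and ZFP36. A match describes the letters of the window only, and no binding was measured.

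The 3′ UTRs of the members differed in AU-rich heptamers, the sequence TATTTAT to which proteins of the ZFP36 family bind. In the canonical transcripts of GENCODE release 44 the heptamer occurred 4 times in IER3, 4 times in IER5, 3 times in ZFP36, 2 times in SRF and 1 time in NR4A2, with overlapping copies counted. It did not occur in the 3′ UTRs of EGR1, EGR2, EGR3, IER2 and NR4A1. Of the 8 members tested below, 62.5% had at least 1 copy, against 35.5% of the 11081 tested genes with a 3′ UTR. One site per gene is shown as mRNA-sense DNA, with the heptamers in capitals.
IER3, chr6:30743647-30743673, minus strand: taaTATTTATatgTATTTATgtacgtc
IER5, chr1:181092451-181092477, plus strand: cttTATTTATTTATTTATttaattata
ZFP36, chr19:39409189-39409215, plus strand: cttTATTTATgacgacttTATTTATtc
SRF, chr6:43179232-43179258, plus strand: actTATTTATtgttgccttttcacgtt
NR4A2, chr2:156325122-156325148, minus strand: gccTATTTATgaataaatattacaaat

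The genes of most members were compact, but not those of all. The median tested member had 2 exons and spanned 4351 bases of the genome, against 8 exons and 27480.5 bases for all tested genes, while the transcript lengths were close, with medians of 2811 and 2866.5 nt. NR4A1 with 7 exons over 36676 bases, NR4A2 with 8 exons over 17912 bases and SRF with 7 exons over 10238 bases were the larger ones. The transcripts of the tested members were richer in GC than those of all tested genes, at a median of 57.7% against 48.5%.

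Knockout and wild-type libraries were compared on log2(FPKM + 0.1) with limma over the 13246 genes with a mean above 1 FPKM, and fold changes on this scale understate those of low genes. A gene was called when its Benjamini-Hochberg adjusted p was under 0.01 and its fold change at least 2. Of the 10 members, 8 passed the filter on low values and 2, EGR2 and EGR3, did not. EGR1 and ZFP36 were called higher, 2 of the 8 tested members or 25%, where 14.2% of all tested genes were called higher. No member was called lower by limma, against 15.3% of all tested genes, while IER2 and IER3 were lower at an unadjusted p under 0.05. The adjusted p was under 0.01, whatever the fold change, for 3 of the 8 members, EGR1, ZFP36 and IER2, where the share among all tested genes was 50.8%. Both knockout values lay above both wild-type values for EGR1, ZFP36 and IER5 (40.1% of all tested genes) and below them for IER2 and IER3 (45.9%), and the groups overlapped for NR4A1, NR4A2 and SRF. On the log2 scale the tested members had a median of 0.05, against −0.09 for all tested genes. Since EGR1 passed the filter on its knockout values alone, these counts describe the members and test nothing about them.

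**Figure D1:**
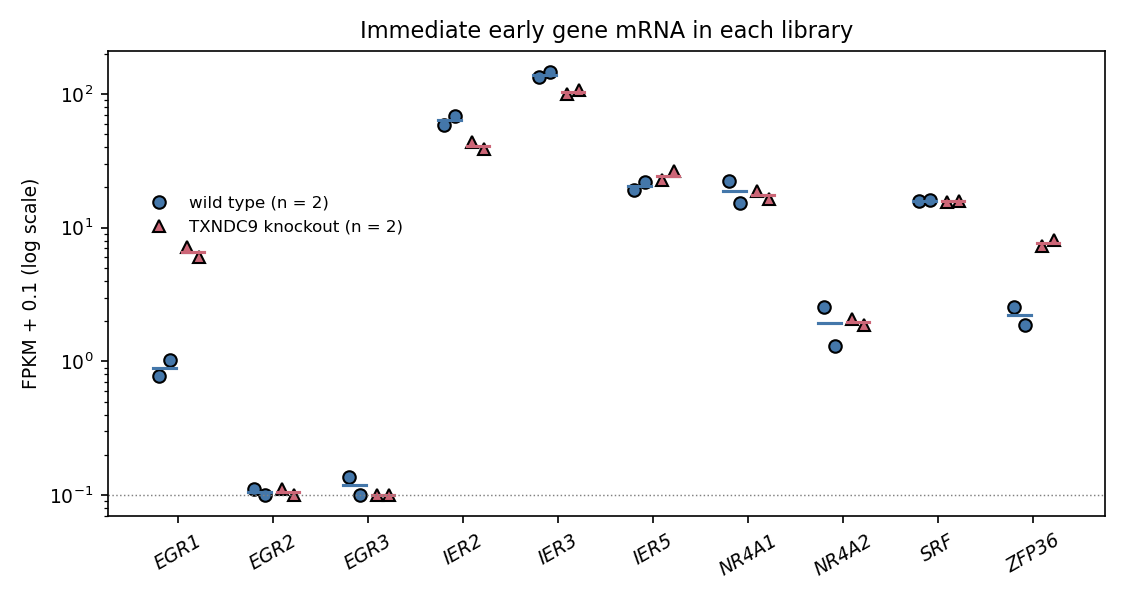
FPKM + 0.1 on a log axis for each member in the 2 wild-type libraries (circles) and the 2 TXNDC9 knockout libraries (triangles), with the mean of each group as a line and the dotted line at a value of 0. EGR1 and ZFP36 are higher in both knockout libraries, EGR2 and EGR3 lie at or near 0 in all 4, and IER2 and IER3 are lower in the knockout libraries on this scale, a direction that turns after rescaling to TPM or correction for length and GC.

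EGR1 showed the largest difference among the tested members. This zinc finger factor (ENSG00000120738, chr5:138465479-138469303 of hg38, as for all positions, plus strand, 2 exons) was 0.679 and 0.918 FPKM in wild-type libraries against 7.02 and 5.90 FPKM in the knockout libraries. Both knockout values were far above both wild-type values, and the wild-type mean was below the level of 1 FPKM used as the filter. The mean was 0.799 ± 0.169 FPKM (SD, n = 2) in wild type against 6.46 ± 0.796 FPKM (SD, n = 2) in knockout, a ratio of 8.09. The log2 fold change was 2.88 (SE 0.22, 95% interval 2.32 to 3.43, adjusted p = 0.000538), at place 143 from the top among the 13246 genes. Without knockout replicate 1 or 2 it was 2.75 or 3.0 with an adjusted p of 0.0237 or 0.0232, and EGR1 was no longer called, as no gene was in those fits. No annotated gene overlaps EGR1.

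The paralogs of EGR1 were not detected at a level that allowed a test. EGR2 (chr10:62811996-62819167, minus strand), known for its roles in the hindbrain and in myelinating cells, was listed at 0.0111 and 0 FPKM in wild type, and at 0.0111 and 0 FPKM in knockout. EGR3, on chromosome 8, was listed at 0.0367 and 0 FPKM in wild type, and at 0 in both knockout libraries. EGR2 was near 0 in all 4 libraries although 1 of its promoter windows, like that of EGR1, held a CArG box. EGR4 was at 0.0234 and 0.0278 FPKM in wild type against 0 in knockout and was not tested. These values give no fold change, and an absence of the transcripts cannot be stated without the depth. EGR2 and EGR3 each overlap 1 annotated long noncoding RNA.

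ZFP36 was the other member to rise. It encodes tristetraprolin, which binds AU-rich elements and recruits the CCR4-NOT deadenylase to the message, its own included. ZFP36 (ENSG00000128016, chr19:39406847-39409412, plus strand, 2 exons) was 2.47 and 1.76 FPKM in wild type against 7.18 and 7.95 FPKM in knockout, with no overlap between the groups. The means were 2.12 ± 0.503 and 7.56 ± 0.543 FPKM (SD, n = 2 each), a ratio of 3.58, and the log2 fold change was 1.81 (SE 0.20, 95% interval 1.32 to 2.30, adjusted p = 0.000874). It stood at place 607 from the top. ZFP36 too lost its call without knockout replicate 1 (log2 fold change 1.88, adjusted p = 0.0249) or 2 (1.74, adjusted p = 0.0251). Its relative ZFP36L1 was 13.99 and 12.6 FPKM in wild type against 24.5 and 24.9 FPKM in knockout, with a log2 fold change of 0.89 (adjusted p = 0.00106), short of 2-fold. ZFP36L2 had a log2 fold change of 0.53 (adjusted p = 0.0139). Of the 29 tested genes of AU-rich decay, 5 were called higher (XRN1, CNOT6L, PAN3, CNOT6 and DCP1A) and 5 lower (EXOSC4, CNOT3, EXOSC5, EXOSC9 and EXOSC1). Their median was 0.03 on the log2 scale, and among all tested genes 14.2% were called higher and 15.3% lower. Once transcript length and GC were corrected for, as described below, XRN1 was called higher and no other gene of the list in either direction. The shares among all genes were then 6.38% higher and 7.72% lower.

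The 3 IER genes had the highest mean levels of the members, and none was called. IER2, a short-lived nuclear protein (ENSG00000160888, chr19:13150411-13154911, plus strand), was 58.5 and 68.0 FPKM in wild type against 43.3 and 38.5 FPKM in knockout. Both knockout values were lower, with a log2 fold change of −0.63 (SE 0.13, 95% interval −0.94 to −0.31, adjusted p = 0.00651), under 2-fold, but the value was 0.05 after rescaling to TPM and 0.17 after the correction for length and GC. IER3, a survival factor and substrate of ERK (ENSG00000137331, chr6:30743199-30744548, minus strand), was 132.8 and 146.0 FPKM in wild type against 100.2 and 107.6 FPKM in knockout. Its log2 fold change was −0.42 (SE 0.12, 95% interval −0.71 to −0.14, adjusted p = 0.0194), and this too turned, to 0.26 in TPM and 0.40 after the correction. IER5, which takes part in the control of the heat shock factor HSF1 (ENSG00000162783, chr1:181088700-181092900, plus strand, 1 exon), was 19.2 and 21.9 FPKM in wild type against 22.5 and 26.3 FPKM in knockout. The values lay close together, and the log2 fold change of 0.24 (SE 0.13, 95% interval −0.08 to 0.57, adjusted p = 0.141) became 0.92 in TPM and −0.01 after the correction. IER5L, the paralog of IER5, fell from 71.2 and 76.1 FPKM to 22.7 and 22.1 FPKM (log2 fold change −1.71, adjusted p = 0.000487). At −0.96 after the correction (adjusted p = 0.00198) it was short of 2-fold and no longer called, while at −1.03 in TPM it was called lower. IER2 overlaps 2 and IER3 overlaps 2 long noncoding RNAs on the opposite strand, from which its reads cannot be told apart if strand was not used in counting.

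The NR4A receptors did not differ beyond the spread between libraries. NR4A1, also known as Nur77 (ENSG00000123358, chr12:52022832-52059507, plus strand), was 22.3 and 15.2 FPKM in wild type against 18.7 and 16.2 FPKM in knockout. Both knockout values lay between the wild-type values, and the log2 fold change was −0.08 (SE 0.20, 95% interval −0.57 to 0.41, adjusted p = 0.747), or 0.60 in TPM and 0.52 after the correction. NR4A2, also known as Nurr1 (ENSG00000153234, chr2:156324437-156342348, minus strand), was 2.46 and 1.21 FPKM in wild type against 1.99 and 1.79 FPKM in knockout. The wild-type values again lay on either side of the knockout values, and the log2 fold change of 0.12 had the widest interval of the members, from −0.76 to 1.0 (SE 0.35, adjusted p = 0.784). Its value was 0.77 in TPM and −0.09 after the correction. NR4A3, the third receptor of the family, was 4.37 and 3.66 FPKM in wild type against 4.43 and 4.33 FPKM in knockout (log2 fold change 0.13, adjusted p = 0.474). NR4A1 overlaps an antisense gene, NR4A1AS.

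SRF itself, the factor that binds CArG boxes (ENSG00000112658, chr6:43171269-43181506, plus strand), differed least among the tested members in FPKM. It was 15.7 and 15.9 FPKM in wild type against 15.5 and 15.8 FPKM in knockout. The groups overlapped, and the log2 fold change was −0.02 (SE 0.10, 95% interval −0.25 to 0.22, adjusted p = 0.883). Its value was 0.66 in TPM, near the shift of all genes under that scaling, and 0.24 after the correction.

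In wild-type cells the members ranked from IER3 over IER2, IER5, NR4A1, SRF, ZFP36, NR4A2 and EGR1 to EGR3 and EGR2 by mean FPKM. The ranges of neighbouring members overlapped for IER5 and NR4A1, for NR4A1 and SRF, for ZFP36 and NR4A2, and for EGR3 and EGR2. In knockout cells the order was the same down to ZFP36, and EGR1 then stood above NR4A2, with overlap only between EGR2 and EGR3. The levels of ZFP36 and NR4A2, which overlapped in wild type, were thus 7.56 and 1.89 FPKM in knockout.

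The sum of FPKM over all genes was 805816 and 971102 in wild type and lower in knockout, at 535973 and 568279.5, which bears on every small fold change. In TPM, where all libraries have the same sum, the median over all tested genes was 0.59 in place of −0.09 on the log2 scale, and that over the members was 0.72 in place of 0.05. The log2 fold change also rose with transcript length (Spearman correlation 0.495 across 13112 genes) and fell with GC content (−0.462), and genes are not independent replicates. After a loess correction for both in each library, the median was 0.32 for the members and −0.07 for all genes. EGR1 and ZFP36 were then called higher still, 2 of 8 against 6.38% of all genes called higher, and no member was called lower against 7.72%. The corrected log2 fold changes were 3.05 for EGR1 (adjusted p = 0.0018) and 2.46 for ZFP36 (adjusted p = 0.00206). In TPM they were 3.57 and 2.49, so the rise of both held under each scaling. TPM gave 2 of the 8 members called higher and 0 lower, against 4380 higher and 447 lower among the 13246 tested genes.

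**Figure D2:**
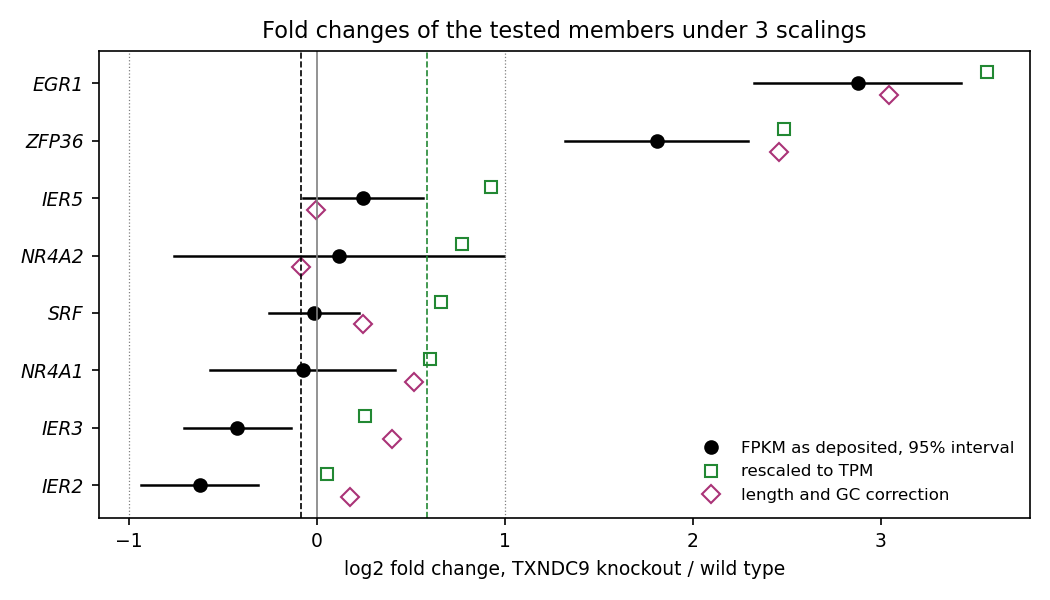
Log2 fold change (knockout against wild type, 2 libraries each) of the 8 tested members from FPKM as deposited (filled circles with 95% intervals), after rescaling to TPM (squares) and after correction for length and GC (diamonds), with dashed lines at the all-gene medians of −0.09 (FPKM) and 0.59 (TPM) and dotted lines at 2-fold. EGR1 and ZFP36 lie above 2-fold under all 3 scalings, while the signs of IER2, IER3, IER5, NR4A1, NR4A2 and SRF depend on the scaling or correction.

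A ratio between members in the same library does not depend on its scaling, so each was also divided by SRF. The ratio of EGR1 to SRF was 0.0431 and 0.0576 in wild type and 0.453 and 0.374 in knockout, and that of ZFP36 to SRF was 0.157 and 0.110 against 0.463 and 0.503. IER2 stood at 3.71 and 4.27 times SRF in wild type and 2.79 and 2.44 times in knockout, and IER3 at 8.44 and 9.16 times against 6.45 and 6.81 times. IER5 stood at 1.22 and 1.38 times SRF in wild type and 1.45 and 1.67 times in knockout. The pairs did not overlap for EGR1, ZFP36 and IER5, which were higher relative to SRF, nor for IER2 and IER3, which were lower. How many of all genes had ratios to SRF without overlap was not computed. In FPKM, 40.1% of all tested genes had both knockout values above both wild-type values and 45.9% below. The division removes a factor common to a library but no trend with length and GC. After the correction the log2 fold change of IER3 (0.40) was above that of SRF (0.24), and those of IER2 (0.17) and IER5 (−0.01) were below it. Such ratios show that the members changed unequally and not which of them moved.

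**Figure D3:**
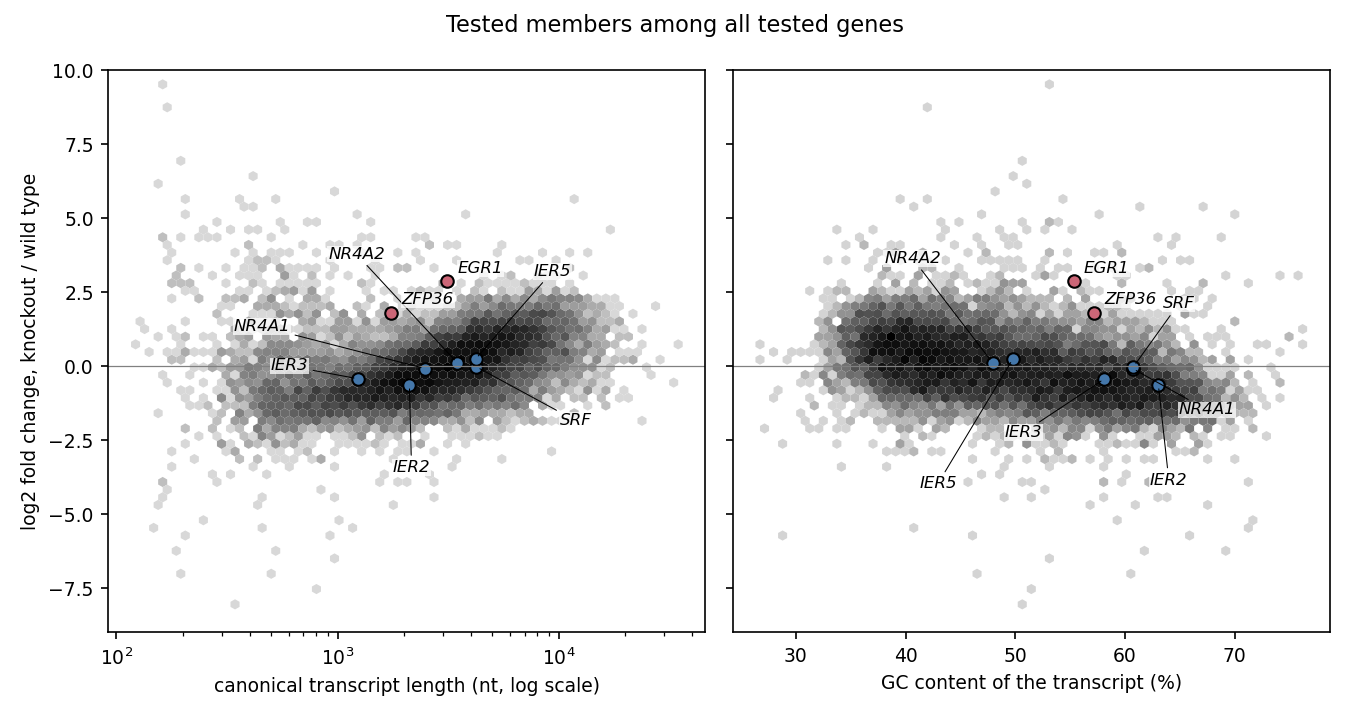
Log2 fold change (knockout against wild type) against canonical transcript length on a log axis (left) and against GC content (right), with the number of tested genes as grey shading and the tested members as circles, red where called higher. The log2 fold change rises with length and falls with GC over 13112 genes. EGR1 and ZFP36 lie above most genes of like length and GC.

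The factors that act with SRF and EGR1 were measured next. Beside the counts of this and the following lists, 14.2% of all tested genes were called higher and 15.3% lower. After the correction for length and GC these shares were 6.38% and 7.72%. Of 7 tested cofactors, 2 were called higher and none lower, around a median of 0.88 on the log2 scale. MKL2, a coactivator of SRF regulated by actin, rose from 2.57 and 1.97 FPKM to 6.75 and 9.45 FPKM (log2 fold change 1.78, adjusted p = 0.00123). NAB1, a corepressor of EGR proteins, rose from 4.56 and 4.88 FPKM to 11.7 and 13.7 FPKM (1.40, adjusted p = 0.000633). ELK4, a ternary complex factor, had a log2 fold change of 0.98 (adjusted p = 0.00119), under 2-fold. With length and GC corrected for, none of the 7 was called, with values of 0.88 for MKL2, 0.80 for NAB1 and −0.17 for ELK4.

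Among 18 tested genes of the ERK, RSK, MSK and CREB input, 7 were called higher and 2 lower (MAP2K2 and CRTC1), around a median of 0.57 on the log2 scale. EP300, the acetyltransferase that works with CREB, rose by 2.19 on the log2 scale, and RPS6KA5, which encodes MSK1, by 2.12. With the correction 3 were called higher, among them EP300 (1.54) and CREBBP (1.15), and CRTC1 lower (−1.18). RPS6KA5, at 0.96, was then no longer called. These are mRNA levels, and the phosphorylation through which the pathway acts was not measured.

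The cytoskeletal targets of SRF had the opposite balance. Of 24 tested, 7 were called lower and 1, CALD1, higher, with a median of −0.46. TAGLN, an actin-binding protein of smooth muscle, fell from 32.9 and 40.5 FPKM to 7.03 and 8.23 FPKM (log2 fold change −2.25, adjusted p = 0.000512). FLNA, an actin crosslinker, fell by 1.94 on the log2 scale and the tropomyosin TPM2 by 1.76. With the correction TAGLN (−2.17), FLNA (−1.95) and MYL9 (−1.22) were called lower and none higher. In TPM the median of these targets was 0.22, against 0.59 for all tested genes.

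Other early genes were measured in the same libraries. Of 9 tested FOS and JUN family genes, 2 were called higher and 3 lower (BATF3, FOSL1 and JUND). FOSB was 0.293 and 0.250 FPKM in wild type against 13.5 and 12.6 FPKM in knockout (log2 fold change 5.15), FOS was 31.1 and 18.5 against 223.1 and 224.3 FPKM (3.21), and BATF3 had a log2 fold change of −2.0. FOS thus stood above EGR1 in level in both groups. Of 11 tested DUSP, Sprouty and SPRED feedback genes, none was called higher and 1, DUSP2, was called lower (−1.74), while in TPM 6 were called higher and 1 lower. SPRY1 had a log2 fold change of 1.22 (adjusted p = 0.0242) and DUSP1 one of 0.81 (adjusted p = 0.00167). With the correction FOSB, FOS and JUN of the FOS and JUN family were called higher (5.31, 3.54 and 1.15) and none lower. Of the feedback genes, 1, DUSP1, was then called higher at 1.28, and DUSP2, at −0.80, was no longer called lower. Of 25 other early genes, 5 were called higher (TNFAIP3, CTGF, KLF6, TRIB1 and PLK2) and 1 lower, with a median of 0.01. With the correction TNFAIP3, CTGF and TRIB1 were called higher, KLF6 (0.66) and PLK2 (0.91) no longer were, and ID1 was called lower, while in TPM 9 were called higher and 1 lower. TNFAIP3, an inhibitor of NF-kappaB signalling, rose (2.24), as did CTGF, a matricellular protein (1.46), and ID1, a target of BMP signalling, fell by 3.43 on the log2 scale. Among the AU-rich decay genes the largest differences were those of the exonuclease XRN1 (2.46), the deadenylase CNOT6L (1.74) and the exosome subunit EXOSC4 (−1.67), and only that of XRN1 was called after the correction (1.28). TPM moved the balance of all tested genes, with 4380 of 13246 called higher and 447 lower, and that of the other lists with it. It gave 11 higher and 0 lower for the ERK, RSK, MSK and CREB input, and 6 and 0 for the cofactors. The counts were 4 and 0 for the FOS and JUN family, 10 and 0 for AU-rich decay, and 2 higher and 5 lower for the SRF targets. Whether the members differ from any of these lists was not tested.

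**Figure D4:**
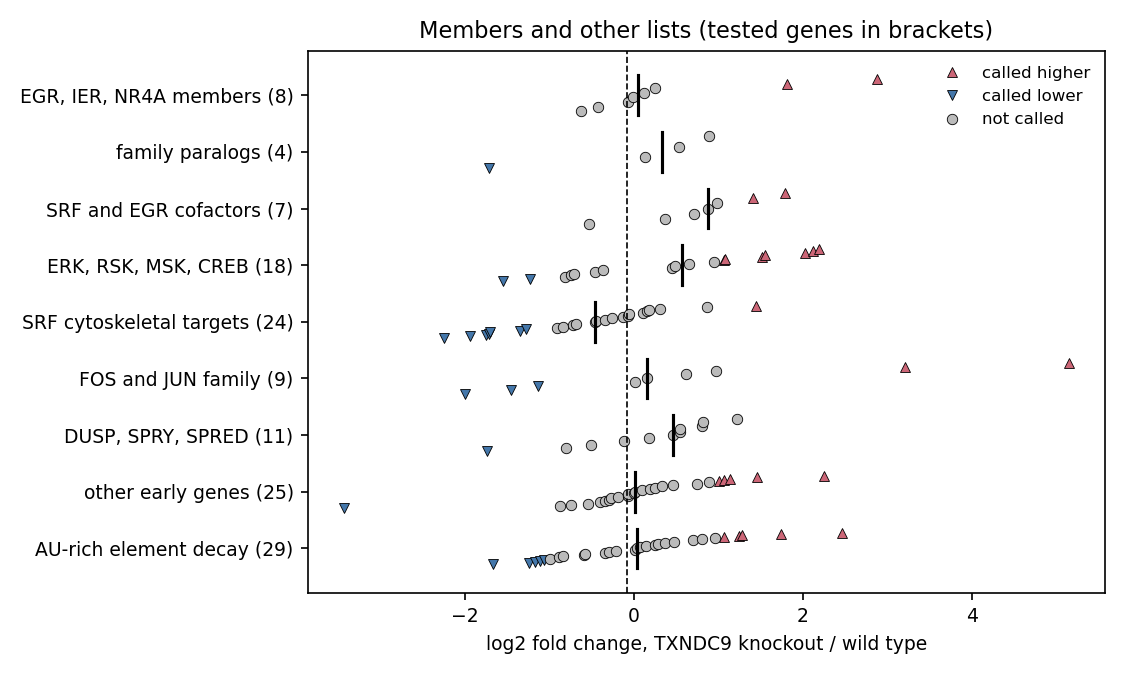
Log2 fold change (knockout against wild type, FPKM as deposited) of each tested gene in the members and 8 other lists, with called genes as triangles, the median of each list as a bar and the median of all tested genes as a dashed line at −0.09. The members have 2 genes called higher and none lower, and the cytoskeletal targets of SRF 7 lower and 1 higher. Of all tested genes, 14.2% were called higher and 15.3% lower. Small values can change sign in TPM or after the correction for length and GC.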

How the data were processed

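Polyadenylated RNA was sequenced from 2 wild-type and 2 TXNDC9 knockout libraries. TopHat2 was the authors' mapper (hg38), and the authors deposited FPKM per gene and library from Cuffdiff of the Cufflinks suite, the versions, library normalization and strand setting being not given in the sources used here. The deposited averages, fold changes, p-values and q-values hold the authors' own comparison and were not used. The table had 231916 lines, of which 57979 held values, and each identifier was repeated 4 times, out of register with the symbols. Genes were taken by symbol, and identifiers were put back in order, after which 34949 symbols matched their identifier in GENCODE release 44, against 1 as deposited.

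Genes with a mean above 1 FPKM (13246) were tested by limma 3.58.1 (R 4.3.3) on log2(FPKM + 0.1), using a mean-variance trend for the prior and adjusting p by Benjamini-Hochberg over all of them, so every adjusted p is from this fit unless a correction is named. An exact permutation test of 2 against 2 libraries cannot go below 0.33. The deviations of same-numbered libraries from their group means correlated at −0.0904 over genes, and the numbers were therefore not taken to pair the libraries. The correction fitted a loess curve (span 0.3) on transcript length and GC content in each library, for the 98.99% of tested genes with both. On simulated data for this comparison, 200 of 200 changed genes were recovered among 13246 with 0 false calls. With a simulated length trend, 188 were recovered with 2242 false calls before the correction and 200 with 0 after it, among 13112 genes. The changed genes were moved by 2 on the log2 scale, with independent normal noise near the median spread within groups. These counts are no error rates for the real libraries, where 50.8% of tested genes had an adjusted p under 0.01. Among genes under 0.03 FPKM, the commonest ratio between a pair of libraries covered at most 4.53%, which shows no step of 1 read, and the depth is unknown.

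The members and all gene lists were chosen with earlier results of these data known. Every member is named, with the 3 tested genes of largest absolute log2 fold change from each other list and TXNDC9, except 1 gene that is not reported here. Other genes named (EGR4, NR4A3, CDH5, DCN, COL1A2, CD3E and the hepatoma markers) are given as paralogs or markers, and further called genes of a list were chosen for naming after their values were seen. The alternatives tried were pseudocounts of 1 and 0.01, leaving out the filter, a mean above 5 FPKM, an adjusted p under 0.05, TPM, median centring, no trend, the replicate block, the correction, and leaving out each library. All 9 printed sequences matched hg38. Python 3.11.15, pandas 2.3.3, numpy 2.4.6 and matplotlib 3.10.9 were used.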

Additional observations from a re-analysis of the deposited data

How the results depend on the processing

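EGR1 and ZFP36 were called higher under every alternative but a mean above 5 FPKM, which both fall below, leaving 0 members called higher, and leaving out either knockout library. Leaving out each library gave 0 to 2 members called higher, and 0 to 2633 genes called lower and 0 to 2136 called higher among all tested genes. Without knockout replicate 1 or 2 no gene at all was called, and the log2 fold changes were 2.75 and 3.0 for EGR1 (adjusted p = 0.0237 and 0.0232) and 1.88 and 1.74 for ZFP36 (adjusted p = 0.0249 and 0.0251). In those fits the lone library is assumed to vary like the others. Over all genes, called counts were 447 lower and 4380 higher in TPM, 1012 lower and 836 higher with the length and GC correction, 987 lower and 724 higher with the correction and the replicate block, and 1220 higher with a mean above 5 FPKM.

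The direction of 6 members changed. In TPM the log2 fold change was 0.054 for IER2, 0.26 for IER3, 0.60 for NR4A1 and 0.66 for SRF. With the correction, with or without the replicate block, it was 0.17 for IER2, 0.40 for IER3, −0.0086 for IER5, 0.52 for NR4A1, −0.087 for NR4A2 and 0.24 for SRF. Centring on the median gave −0.026 for NR4A2. Leaving out each library gave −0.35 to 0.20 for NR4A1 and −0.36 to 0.60 for NR4A2, with the turns without wild-type replicate 1 (0.20) and knockout replicate 2 (0.026) for NR4A1 and without wild-type replicate 2 (−0.36) for NR4A2. The cause of these changes was not tested. The replicate block alone changed no call of a member: adjusted p was 2.45e-05 for EGR1, 6.96e-05 for ZFP36, 0.00211 for IER2 and, now under 0.01 but not 2-fold, 0.00875 for IER3. The depth is unknown, so no detection limit can be given for EGR2 and EGR3.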
